A study of Mus musculus with 15 samples.

Results

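The circadian clock genes examined here were Arntl (also named Bmal1), Clock, Per1, Per2, Per3, Cry1, Nr1d1, Nr1d2, Dbp and Tef. They were taken by symbol from a table of FPKM, and all 10 were found, each once, among 55335 listed genes. The table holds RNA-seq of tumor-associated macrophages (TAMs), which were isolated by FACS from orthotopic HCC. These tumors were raised by placing Hepa1-6, a mouse hepatoma line, in the liver of strain C57BL/6. There were 15 samples, 5 from control tumors, 5 from tumors whose cells carried miR-144 overexpression and 5 from tumors with miR-451a overexpression. The miRNAs were overexpressed in the tumor cells and not in the TAMs. All groups shared the strain, the tumor line and the site of the tumor. The labels give neither age nor sex, and they do not say whether the samples of a group came from separate mice, so p-values measure the spread between these samples, which may be technical. The study describes fewer samples per group for its RNA-seq panels than the labels give, and all labelled samples were used. The hour of sampling is not given in the sources used here, and levels of clock genes depend on that hour. Differences of hour between groups and the tumor genotype therefore cannot be told apart in these data.

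The circadian clock is a feedback loop of transcription that runs in most cells, macrophages included. The proteins of Clock and Arntl form a dimer that binds E-boxes and activates the Per and Cry genes, whose proteins enter the nucleus and repress the dimer. In a linked loop the REV-ERB receptors, encoded by Nr1d1 and Nr1d2, repress Arntl, and the PAR bZIP factors Dbp and Tef activate genes with a D-box. In macrophages the clock is known to set the daily rhythm of many inflammatory genes.

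The elements of this loop were looked for in the promoter windows of the members, each 250 bases before to 50 bases after a RefSeq start site (GRCm38.p6). A window was found for 9 of the 10 members, 14 windows in all, and Per2 was not searched. The stretches below are shown because they hold, in capitals, the letters that the loop's own factors are known to recognise. Each is 30 bases long, runs 5′ to 3′ on the strand of the gene, and both strands were searched. The E-box CACGTG reads the same on both strands, and it was present in Cry1 (chr10:85185097-85185126), Per1 (chr11:69098771-69098800) and Tef (chr15:81802534-81802563). A second window of Tef held another (chr15:81811264-81811293).
Cry1 E-box: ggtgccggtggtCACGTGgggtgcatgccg
Per1 E-box: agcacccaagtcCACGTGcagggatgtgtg
Tef E-box, first window: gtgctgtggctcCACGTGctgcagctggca
Tef E-box, second window: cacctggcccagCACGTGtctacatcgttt
The D-box TTATGTAA occurred at 2 places in the window of Per3, at chr4:151044852-151044881 and chr4:151044805-151044834.
Per3 D-box, farther from the start: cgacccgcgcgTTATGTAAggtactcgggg
Per3 D-box, nearer to the start: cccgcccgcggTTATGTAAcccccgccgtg
The nuclear receptor half-site AGGTCA, which REV-ERB receptors bind beside an A/T-rich flank, was present in Arntl, Clock, Nr1d2 and Per1, of which Arntl (chr7:113207530-113207559), the known target of these receptors, is shown.
Arntl half-site: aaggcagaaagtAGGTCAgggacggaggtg
Of all RefSeq promoter windows of this length, 7.15% held the E-box, 0.938% the D-box and 16.3% the half-site, and counted by gene these shares were 8.09%, 1.11% and 18.1%. The related letters CACGTT (E-prime box) were in Cry1 and Nr1d1, in 4.69% of all windows and in 5.44% of genes. These are matches of letters, and binding was not measured.

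The sorted cells carried the markers of macrophages. The summed FPKM of 6 macrophage genes was 8620 to 9449 in control TAMs, 14570 to 16440 with miR-144 and 14270 to 15480 with miR-451a. Most of this sum was Lyz2 (mean FPKM 6894, 13170 and 12580), while Cd68 had the opposite order (1444 ± 46.2, 919 ± 25.0 and 910 ± 57.4 FPKM, SD, n = 5). Adgre1, which encodes the sort marker F4/80, was 137 ± 4.96, 361 ± 24.8 and 354 ± 19.6 FPKM, and the means of Csf1r, Mertk and Fcgr1 were also higher in the miRNA groups. Itgam, which encodes the sort marker CD11b, is listed in 2 rows and was left out of the sum. All 5 hepatocyte markers (Alb, Apoa1, Ttr, Apoc3 and Cyp3a11) were listed at 0 in every sample. The implied depth, read from the steps between low FPKM values, was 15.5 to 30.4 M fragments. FPKM is scaled within each sample, and the median gene of mean at least 1 FPKM was higher than control by 0.13 (miR-144) and 0.14 (miR-451a) on the log2(FPKM + 1) scale. Of the called genes of mean at least 1 FPKM, 70.3% and 70.7% were higher than control. After each sample was divided by its median, these shares were 51.0% and 50.5%, so the comparisons of clock genes with control are also given after that centring.

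Compared with control TAMs, 8 of 10 clock genes passed the test in each miRNA group (limma on log2(FPKM + 1), adjusted p under 0.05 over 29540 genes), 6 of them higher and 2 lower. Arntl, Per3, Nr1d1, Nr1d2 and Dbp were higher and Per2 and Cry1 were lower in both comparisons, whereas Per1 was called higher with miR-144 and Tef with miR-451a. Both comparisons share the 5 control samples. Many genes moved in these TAMs: with miR-144, 23.1% of all 29540 genes were called higher and 9.65% lower, and among the 11419 genes of mean at least 1 FPKM these shares were 44.1% and 18.6%. For miR-451a these shares were 24.5% and 9.69% of all genes, and 45.3% and 18.8% of the genes of mean at least 1 FPKM. The groups did not overlap for 7 of 10 clock genes in each comparison, beside 53.9% (miR-144) and 55.2% (miR-451a) of the genes of mean at least 1 FPKM. For 6 of 10, control lay apart from all 10 miRNA samples at once, beside 48.7% of the genes of mean at least 1 FPKM. The 10 genes had a median difference of 0.22 (miR-144) and 0.21 (miR-451a), against the 0.13 and 0.14 of the genes of mean at least 1 FPKM given above. After median centring, 6 of 10 passed in each comparison, 4 higher (Arntl, Per3, Nr1d1 and Dbp) and 2 lower (Per2 and Cry1). Under that centring 16.2% of all 29540 genes were called higher and 13.8% lower for miR-144, and 16.9% and 14.3% for miR-451a. Shares among the genes of mean at least 1 FPKM were not computed under that centring. Before it they were larger than the shares of all genes, and every clock gene but Per2 is in that set.

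**Figure D1:**
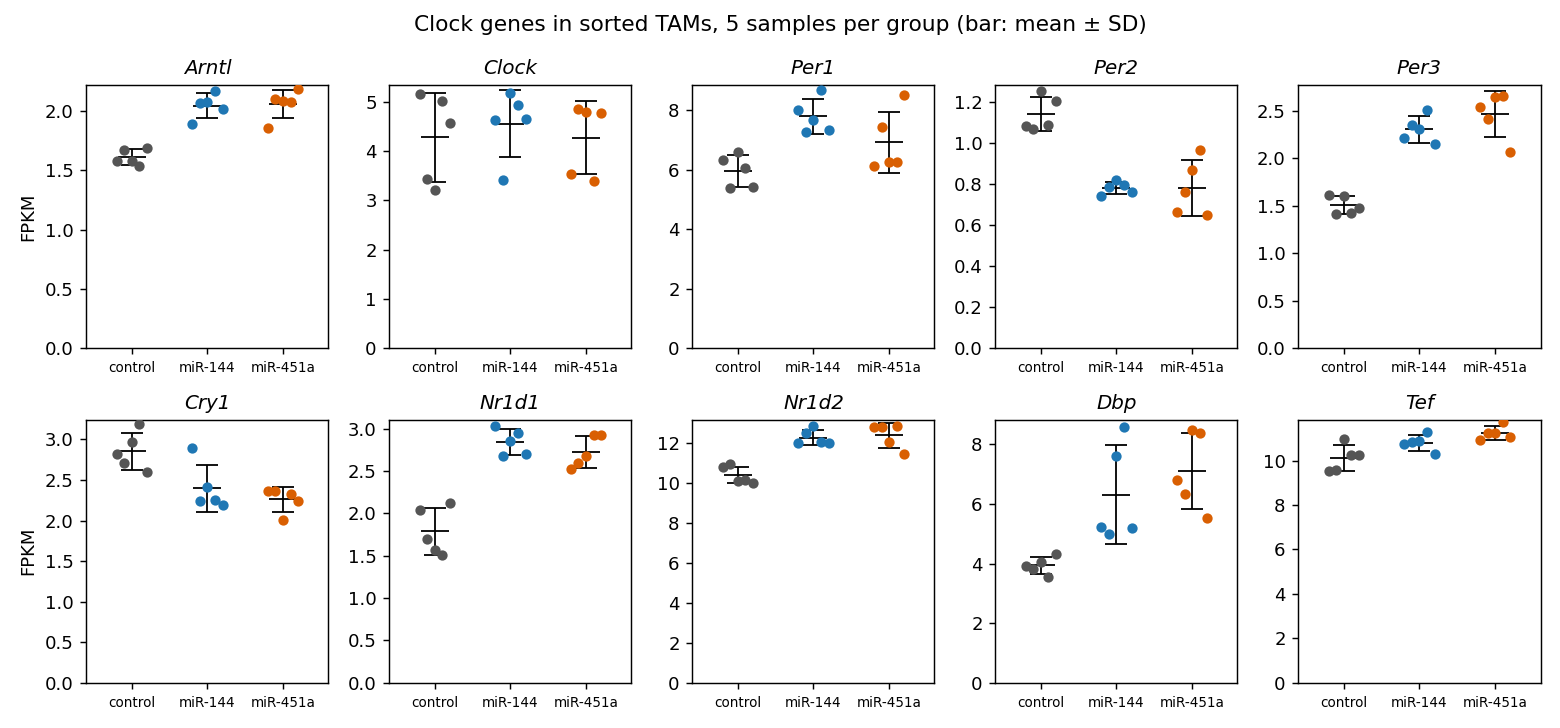
FPKM of the 10 clock genes (y axis, from 0) in each of the 15 samples, by group (x axis); points are samples, and bars are the mean ± SD of 5 samples. Control points lie apart from all 10 miRNA points in 6 genes: below them in Arntl, Per3, Nr1d1, Nr1d2 and Dbp and above them in Per2.

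In control TAMs, mean FPKM, a level per length, ran from Nr1d2 (10.4) and Tef (10.1) through Per1 (5.95), Clock (4.28), Dbp (3.94), Cry1 (2.85), Nr1d1 (1.79), Arntl (1.61) and Per3 (1.504) to Per2 (1.14). Neighbours in this order whose 5 control values overlapped were Nr1d2 with Tef, Clock with Dbp, Nr1d1 with Arntl, and Arntl with Per3.

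Among the activators, Arntl encodes BMAL1, the partner that the clock cannot run without. Its FPKM in control samples 1 to 5 was 1.58, 1.67, 1.58, 1.54 and 1.69. It was 1.89, 2.07, 2.08, 2.17 and 2.02 with miR-144 and 1.86, 2.10, 2.08, 2.08 and 2.19 with miR-451a. Every miRNA sample lay above every control sample. The mean rose from 1.61 ± 0.0671 (SD, n = 5) to 2.05 ± 0.104 and 2.06 ± 0.122, a difference in log2(FPKM + 1) of 0.22 (SE 0.04, limma adjusted p = 0.000338) and 0.23 (SE 0.04, adjusted p = 0.000245). After median centring the differences were 0.12 and 0.12 (adjusted p = 0.0306 and 0.0317), and under quantile normalization they no longer passed (adjusted p = 0.246 and 0.26).

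Clock, the other subunit of the dimer, gave no difference that passed. Its FPKM was 5.16, 3.43, 3.22, 5.02 and 4.57 in control samples, 4.63, 3.40, 5.18, 4.92 and 4.65 with miR-144 and 3.53, 4.85, 4.80, 3.40 and 4.77 with miR-451a. The 15 values fell at 2 levels with none between: 5 samples at 3.22 to 3.53 and 10 at 4.57 to 5.18. Each group had samples at both levels, with 2 control, 1 miR-144 and 2 miR-451a samples at the lower. Implied depth spanned 15.5 to 30.4 M fragments at the lower level and 20.1 to 27.1 M at the upper. The differences from control were 0.08 (95% interval -0.20 to 0.37, limma adjusted p = 0.711) and 0.00 (-0.28 to 0.29, adjusted p = 1), and both turned to -0.04 and -0.13 after median centring.

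The repressors did not move one way. Per1, a PER gene that also responds quickly to signals, had FPKM of 6.31, 5.37, 6.58, 6.05 and 5.41 in control samples. It was 7.99, 7.26, 7.69, 8.68 and 7.32 with miR-144, all above control. In the miR-451a samples it was 6.14, 7.43, 6.26, 6.26 and 8.496, which overlapped control. The difference was 0.34 (SE 0.08, limma adjusted p = 0.00426) with miR-144 and 0.18 (SE 0.08, adjusted p = 0.106) with miR-451a. After median centring the first no longer passed (0.21, adjusted p = 0.0966), nor under quantile normalization (adjusted p = 0.0904), while the miR-451a difference passed after rescaling to TPM (0.28, adjusted p = 0.023). The test of miR-451a against miR-144 gave -0.16 (95% interval -0.33 to 0.02, adjusted p = 0.909), so a different response of Per1 to the miRNAs was not shown.

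Per2, the PER gene needed for a stable rhythm in mice, was lower in both miRNA groups. Its FPKM was 1.08, 1.07, 1.25, 1.09 and 1.20 in control samples. It was 0.741, 0.784, 0.818, 0.797 and 0.762 with miR-144 and 0.664, 0.758, 0.866, 0.965 and 0.648 with miR-451a. All 10 miRNA samples lay below the lowest control sample. The mean fell from 1.14 ± 0.0830 (SD, n = 5) to 0.780 ± 0.0298 and 0.780 ± 0.135, which is 1.46-fold lower in each. The differences were -0.26 (SE 0.05, limma adjusted p = 0.00101) and -0.27 (SE 0.05, adjusted p = 0.000855), and -0.34 and -0.35 after median centring. A value near 1 FPKM makes this scale understate the change: with a pseudocount of 0.1 the differences were -0.49 and -0.50.

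Per3 moved the other way. This PER gene is dispensable for the core rhythm and holds both D-boxes shown above. Its FPKM was 1.61, 1.41, 1.60, 1.42 and 1.47 in control samples, 2.21, 2.35, 2.31, 2.51 and 2.14 with miR-144 and 2.54, 2.41, 2.64, 2.66 and 2.07 with miR-451a. All miRNA samples lay above all control samples, and the mean was 1.53-fold and 1.64-fold higher. The differences were 0.40 (SE 0.05, limma adjusted p = 2.21e-05) and 0.47 (SE 0.05, adjusted p = 4.38e-06), and 0.30 and 0.36 after median centring. In the GENCODE M21 annotation Per3 (chromosome 4, 151003652 to 151044665, minus strand) lies within Camta1 on the same strand. Camta1 rose too, from 0.280 ± 0.0450 FPKM to 0.426 ± 0.0232 and 0.454 ± 0.0404 (SD, n = 5), also after median centring (limma adjusted p = 0.00625 and 0.00166), at a lower level than Per3, and its part in the values of Per3 was not tested.

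Cry1, a strong repressor of the CLOCK and BMAL1 dimer, was lower. Its FPKM was 2.82, 2.71, 2.96, 3.18 and 2.597 in control samples, 2.89, 2.24, 2.41, 2.26 and 2.20 with miR-144 and 2.37, 2.37, 2.002, 2.32 and 2.25 with miR-451a. The miR-451a samples all lay below control, while sample 1 of the miR-144 group, at 2.89, lay within the control range. The differences were -0.18 (SE 0.06, limma adjusted p = 0.0284) and -0.24 (SE 0.06, adjusted p = 0.00527), and -0.30 and -0.36 after median centring. The miR-144 call was lost in a fit of the 2 groups alone (adjusted p = 0.0549), after rescaling to TPM (0.0937), and without control sample 3 or 4 or miR-144 sample 2, 4 or 5 (0.0628 to 0.0758).

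**Figure D2:**
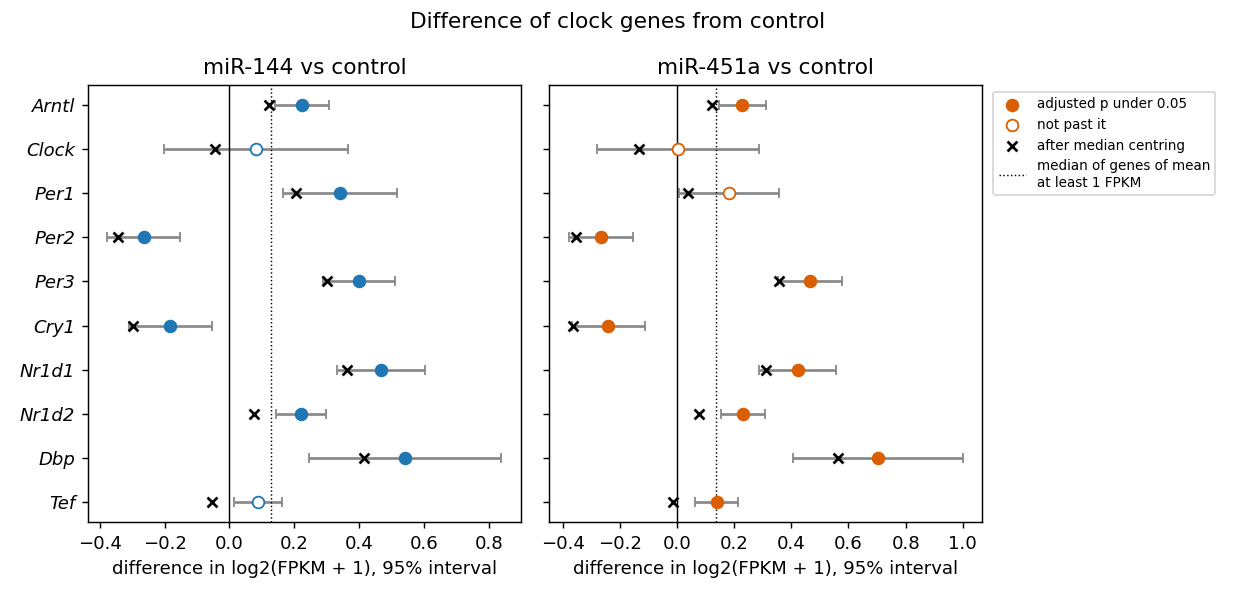
Difference from control in log2(FPKM + 1) (x axis) of the 10 clock genes (y axis), for miR-144 (left) and miR-451a (right); points and bars are limma estimates with 95% intervals, filled where the adjusted p is under 0.05, crosses are the estimates after median centring, and the dotted line is the median of the genes of mean at least 1 FPKM. Per2 and Cry1 stand below 0 on both panels, and the crosses of Clock and Tef lie below 0 although their points do not.

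The REV-ERB receptors were both higher. Nr1d1, which encodes REV-ERB alpha, had FPKM of 2.04, 1.69, 1.57, 1.51 and 2.13 in control samples. It was 3.03, 2.68, 2.86, 2.94 and 2.70 with miR-144 and 2.52, 2.596, 2.67, 2.92 and 2.93 with miR-451a. No miRNA sample reached down to the highest control sample. The mean rose from 1.79 ± 0.279 (SD, n = 5) by 1.59-fold and 1.52-fold, with differences of 0.47 (SE 0.06, limma adjusted p = 3.15e-05) and 0.42 (SE 0.06, adjusted p = 7.66e-05), and 0.36 and 0.31 after median centring. Nr1d1 (chromosome 11, 98767932 to 98775333, minus strand) overlaps 1075 bases of Thra on the opposite strand. Whether the counting used strand is not given in the sources used here, so reads in the overlap cannot be assigned. Thra was also higher, from 3.39 ± 0.217 to 4.10 ± 0.285 and 4.19 ± 0.208 FPKM (SD, n = 5), but after median centring it did not pass (adjusted p = 0.177 and 0.102).

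Nr1d2 encodes REV-ERB beta, which acts beside REV-ERB alpha. Its FPKM was 10.77, 10.91, 10.10, 10.14 and 10.005 in control samples, 11.97, 12.47, 12.85, 12.03 and 11.97 in miR-144 samples and 12.78, 12.78, 12.01, 12.85 and 11.43 in miR-451a samples. All miRNA samples lay above all control samples. The differences were 0.22 (SE 0.04, limma adjusted p = 0.000179) and 0.23 (SE 0.04, adjusted p = 0.000106), but after median centring they were 0.08 and 0.08 and did not pass (adjusted p = 0.104 and 0.0999). Nr1d2 shares 6.00% of its sequence, read in windows of 50 bases along 1 transcript, with AC170187.1, while 0% was shared for each of the other clock genes examined.

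Dbp, the PAR bZIP factor read most often as a clock output, had the largest difference of the 10 genes on the log2(FPKM + 1) scale in both comparisons. With miR-144 that rank went to Nr1d1 at a pseudocount of 0.1 (0.65 against 0.63 for Dbp) and without miR-144 sample 4 (0.46 against 0.44). Its FPKM was 3.91, 3.82, 4.06, 3.56 and 4.33 in control samples. It was 5.21, 5.01, 7.60, 8.58 and 5.19 with miR-144 and 6.80, 6.34, 8.48, 8.37 and 5.54 with miR-451a. All miRNA samples lay above control, and they spread more widely: the SD was 0.285 in control and 1.65 and 1.28 in the miRNA groups. The mean was 1.60-fold and 1.80-fold higher, with differences of 0.54 (SE 0.14, limma adjusted p = 0.00669) and 0.70 (SE 0.14, adjusted p = 0.000914), and 0.41 and 0.56 after median centring. Dbp overlaps 737 bases of Sphk2 on the opposite strand, so reads in that overlap cannot be assigned either. Sphk2 had mean FPKM of 20.8 in control, 23.9 with miR-144 and 22.2 with miR-451a, higher than Dbp. It was not called in either comparison, and its part in the values of Dbp was not tested.

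Tef, a second PAR bZIP factor, moved least among the called genes. Its FPKM was 9.55, 9.58, 10.96, 10.2 and 10.3 in control samples, 10.7, 10.8, 10.9, 11.3 and 10.3 with miR-144 and 10.9, 11.2, 11.2, 11.7 and 11.1 with miR-451a, and the groups overlapped. The differences were 0.09 (SE 0.03, limma adjusted p = 0.0711) and 0.14 (SE 0.03, adjusted p = 0.00536). After median centring both had the opposite sign, -0.05 and -0.01, so its direction depends on the scaling. The miR-144 difference passed after rescaling to TPM (adjusted p = 0.00268), with the filter at a mean of 1 FPKM (0.0491), and without control sample 3 (0.0109) or miR-144 sample 5 (0.0408).

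No clock gene passed the test between the miRNA groups. Of the 10 genes, 0 were called in miR-451a against miR-144 and 0 had an unadjusted p under 0.05 (limma, adjusted p of at least 0.909). Over all genes 0% were called and 1459 had an unadjusted p under 0.05, and 0.849% of the genes of mean at least 1 FPKM had groups that did not overlap. The intervals limit how far the groups can differ: for Arntl the difference was 0.01 (95% interval -0.08 to 0.09), for Per2 0.00 (-0.12 to 0.11) and for Nr1d2 0.01 (-0.07 to 0.09), while they were wider for Dbp (0.16, -0.14 to 0.46) and Clock (-0.08, -0.36 to 0.21).

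The loop has further parts, and a list of 26 other clock genes was examined in the same fit. With miR-144, 7 were called higher and 7 lower, and with miR-451a 7 and 8, while 0 were called between the miRNA groups. The shares of all genes called higher and lower were the 23.1% and 9.65% (miR-144) and the 24.5% and 9.69% (miR-451a) given above. With the filter at a mean of 1 FPKM, 4 of the 26 were called higher and 6 lower (miR-144), and 4 and 7 (miR-451a). Of all 11419 genes under that filter, 5376 were called higher and 2292 lower (miR-144), and 5490 and 2314 (miR-451a). After median centring, 5 of the 26 were higher and 8 lower (miR-144), and 6 and 9 (miR-451a). Their median difference was 0.01 in each comparison with control. The bHLH repressor Bhlhe40 (DEC1), which competes for E-boxes, had by far the largest fall. Its FPKM was 62.5 ± 3.40 in control TAMs, 4.13 ± 0.288 with miR-144 and 3.94 ± 0.182 with miR-451a (SD, n = 5), 15.1-fold and 15.8-fold lower, with differences of -3.63 and -3.68 (SE 0.04 for both, limma adjusted p = 4.77e-16 and 3.91e-16). Its relative Bhlhe41 (DEC2) fell less, from 14.4 ± 0.503 to 11.6 ± 0.952 and 10.9 ± 1.04 FPKM (differences -0.29 and -0.38).

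Nfil3 encodes a bZIP repressor that binds the D-box, opposite to Dbp and Tef. It fell from 33.0 ± 1.67 FPKM in control TAMs to 8.75 ± 0.299 and 8.88 ± 0.717 (SD, n = 5), 3.77-fold and 3.72-fold lower (differences -1.80 and -1.79, limma adjusted p = 1.19e-12 and 1.2e-12). Npas2, which can take the place of Clock, fell from 0.796 ± 0.129 to 0.394 ± 0.127 and 0.374 ± 0.0478 FPKM. Wee1, a cell cycle kinase driven by E-boxes, fell from 3.21 ± 0.168 to 1.43 ± 0.290 and 1.42 ± 0.229 FPKM, and Nampt, the enzyme of NAD salvage, from 69.95 ± 1.496 to 49.7 ± 1.27 and 47.9 ± 1.54 FPKM. Of the genes that rose, Usp2, a deubiquitinase of clock proteins, had the largest difference (0.63 and 0.65), from 0.318 ± 0.0905 to 1.04 ± 0.165 and 1.07 ± 0.0999 FPKM. The kinase gene Csnk1e (0.49 and 0.48), the ubiquitin ligase gene Fbxw11 (0.34 and 0.30), Nono (0.41 and 0.41) and Kdm5a (0.43 and 0.45), whose proteins act with PER and with CLOCK and BMAL1, were higher too. All 11 genes named in this and the previous paragraph kept their direction and passed after median centring. Rorb and Hlf were at or near 0 FPKM, although Hlf is among the 8 called lower with miR-451a (-0.03, limma adjusted p = 0.0411), and Cry2 and Rora did not pass in either comparison.

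**Figure D3:**
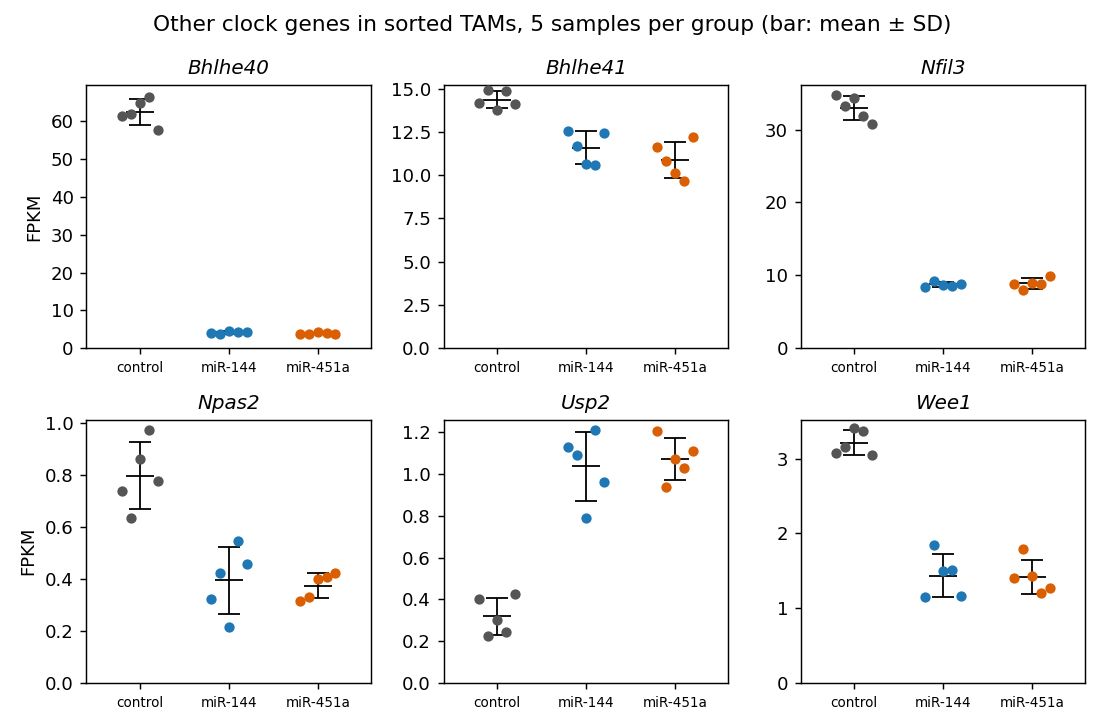
FPKM of 6 other clock genes (y axis, from 0) in each of the 15 samples, by group (x axis); points are samples, and bars are the mean ± SD of 5 samples. Bhlhe40 falls from 62.5 to 4.13 and 3.94 FPKM, and the control points lie apart from all miRNA points in each of the 6 genes because the genes were chosen for this.

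Other marker genes moved with the groups beside these results. The summed FPKM of 9 immediate early genes, which respond to handling as well as to signals, was 350 to 376 in control TAMs, 164 to 184 with miR-144 and 160 to 183 with miR-451a, and the largest part came from Atf3 (222 ± 4.99, 67.7 ± 4.03 and 60.7 ± 4.52 FPKM, SD, n = 5). Not all 9 followed the sum: Ier2 was 8.26 ± 0.832, 15.2 ± 1.31 and 16.3 ± 1.18 FPKM, Nr4a1 was 0.230 ± 0.0590, 1.36 ± 0.101 and 1.56 ± 0.155 FPKM, and the means of Egr1 and Fosb were not lower in the miRNA groups. The sum of 4 fibroblast or stellate cell markers was 97.2 to 121 in control, 131 to 190 with miR-144 and 166 to 210 with miR-451a, with Lrat at 0. Nearly all of that sum was Col1a1 (mean FPKM 70.0, 102 and 124) and Col1a2 (36.6, 51.7 and 60.8). Dcn had means of 0.779, 1.26 and 1.95 FPKM. The sum of 5 Kupffer cell markers was 3.30 to 3.77 in control, 17.1 to 50.1 with miR-144 and 15.99 to 47.3 with miR-451a, with Clec4f at 0. Nearly all of it was Cd5l (mean FPKM 3.40, 29.8 and 27.1), and the other 4 genes stayed below 1 FPKM in every sample. Sums of 4 monocyte markers were 2.39 to 3.75, 7.05 to 11.98 and 6.59 to 11.1 FPKM in the same order, those of 4 dendritic cell markers 0.252 to 0.314, 0.444 to 0.670 and 0.424 to 0.643, and those of 4 endothelial markers 3.70 to 4.30, 4.67 to 5.02 and 4.66 to 5.93. The endothelial sum was mostly Kdr (mean FPKM 2.80, 3.85 and 4.07), while Pecam1 had means of 0.197, 0.126 and 0.163 FPKM and Stab2 of 0.925, 0.807 and 0.866 FPKM. In the dendritic cell list Siglech had means of 0.0134, 0.203 and 0.157 FPKM, and Zbtb46 had means of 0.0955, 0.0516 and 0.0767 FPKM. The sum of 3 NK cell markers was 0.192 to 0.416 in control and lower, 0.0477 to 0.168 and 0.0323 to 0.137, in the miRNA groups, with Ncr1 and Eomes at 0. The sums of neutrophil, T cell, B cell and erythroid markers overlapped between groups. The part of these genes in the differences of the clock genes was not tested. In sorted bulk cells, a change in the mix of cells and a change of RNA within a cell cannot be told apart.

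The clock genes were then compared from sample to sample within groups, as deviations of log2(FPKM + 1) from the group mean over all 15 samples. Of 45 pairs of members, 6 had an unadjusted p under 0.05 and 1 passed after Benjamini-Hochberg adjustment over the 45 pairs (two-sided permutation test within groups, 100000 resamples). This was Per2 with Tef, with Pearson's r of 0.66 (permutation p = 0.00052, adjusted p = 0.0234). Spearman's rho was 0.77 (adjusted p = 0.0405), but with the ranks centred on the group mean, the version computed first, it was 0.77 with an adjusted p of 0.0518. Without the 2 samples farthest from the median of Per2, r was again 0.66, but it no longer passed (permutation p = 0.0097, adjusted p = 0.437). Per3 with Dbp (r = 0.71, rho = 0.72, r without 2 samples 0.48) and Per2 with Dbp (r = 0.62, rho = 0.62, r without 2 samples 0.50) both had adjusted permutation p = 0.0641.

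**Figure D4:**
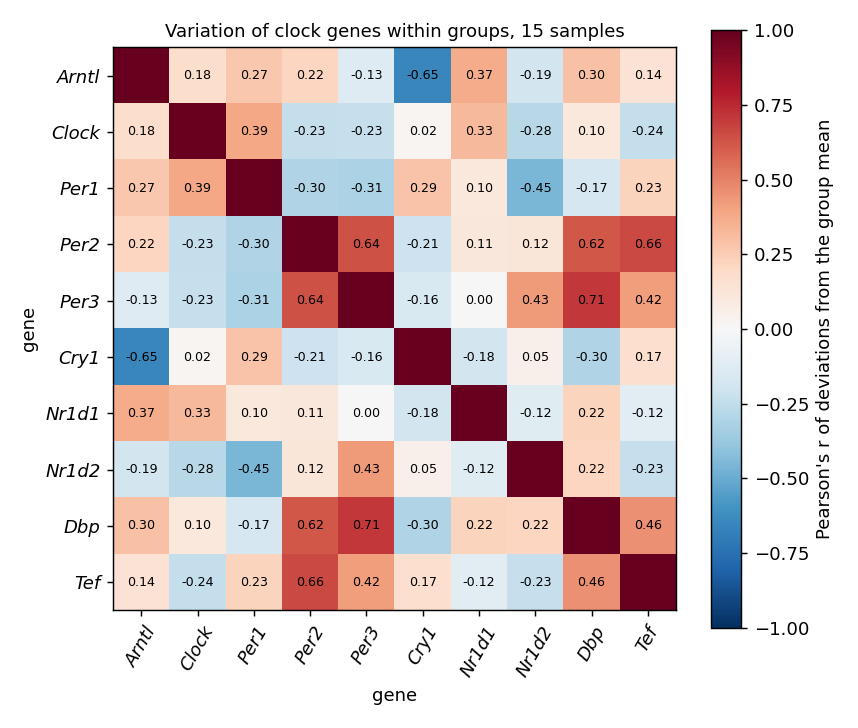
Pearson's r between clock genes (both axes) of deviations from the group mean of log2(FPKM + 1) over 15 samples, by color from -1 to 1 and in figures. The values for Per3 with Dbp (0.71), Per2 with Tef (0.66) and Arntl with Cry1 (-0.65) are among the largest in size.

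Among 11410 other genes of mean at least 1 FPKM, those whose deviations over the 15 samples were most like Nr1d2 were Virma (r = 0.90), Pdha1 (0.90), Cep120 (0.88), Washc4 (0.86) and Ddx10 (0.86). Those most like Arntl were Pold4 (r = 0.86), Fam151b (0.81), Gm5086 (0.81), Chmp1a (0.80) and Dscr3 (0.79). At the other end, the lowest values were of similar size (Hcls1 with Nr1d2, r = -0.88, and P4ha1 with Arntl, r = -0.83). All of these are extremes picked from 11410 genes over 15 samples, and they were not tested. These values are descriptions over samples that share their libraries and depth.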

How the data were processed

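TAMs were sorted and sequenced on an Illumina HiSeq by the authors. The submitters' processing notes name FastQC 0.11.2, STAR and StringTie. The genome build and the annotation are not given in the sources used here. The deposited values are FPKM per gene and sample, already divided by transcript length and mapped fragments, so no count model was used, and the depth (15.5 to 30.4 M fragments) is only implied by their steps. Groups and sample numbers were taken from the labels, and no column was left out. FPKM was transformed as log2(FPKM + 1), and the 3 groups were fitted together with limma 3.58.1 with a mean-variance trend over 29540 genes above 0 in at least 1 sample, with Benjamini-Hochberg adjustment at 0.05. This fit was checked on simulated data with known changes. The members and the gene lists were chosen with earlier results of these data known. Other clock genes were named where they were called in both comparisons with control and the control samples lay apart from all 10 miRNA samples, and the values of 1 gene of that list are not reported here, while the counts include it. Positions are those of GENCODE M21 (GRCm38), which held 99.67% of the identifiers, and promoter sequences are from RefSeq (GRCm38.p6). Alternatives were another pseudocount, filters on low values, median centring, quantile normalization, rescaling to TPM, limma without a trend or with robust settings, a replicate block, 2-group fits and each sample left out in turn. Of the correlations within groups, Spearman's ranks were first centred on the group mean; that version was replaced after its result was seen, and both are given.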

Additional observations from a re-analysis of the deposited data

Results flagged for a closer look

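Of 63 groups of 5 samples (21 clock genes in 3 groups), 1 held a sample far from the others. Nampt in control sample 2 was 72.5 FPKM, with the nearest control sample at 70.0 and the lowest at 69.0, a gap of 0.71041 of the group's range. Chance flags about 1 group in 20, which here is 3.15 groups. The sample still lay above all 10 miRNA samples.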

How the results depend on the processing

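Each difference of a clock gene was recomputed under up to 25 alternatives. In the comparisons with control, 230 of 249 values (miR-144) and 237 of 249 (miR-451a) kept their direction and their side of the threshold. Per2, Per3, Nr1d1 and Dbp kept both under every alternative run in both comparisons. The sign turned for Clock with miR-144 (-0.0442 after median centring, -0.0631 after quantile normalization), for Tef with miR-144 (-0.0549 and -0.0319) and with miR-451a (-0.014 after median centring), and for Clock with miR-451a (-0.13 and -0.15, and -0.0732 to 0.0658 with 1 sample left out). Between the miRNA groups it turned for Arntl (-0.0017 and -0.0025 after the same scalings, -0.0126 to 0.0307 with 1 sample left out), Per2 (-0.0396 to 0.0239) and Nr1d2 (-0.0018 to 0.0373), all without a call. The cause was not tested. The number of clock genes called ranged from 7 to 8 (miR-144) and stayed at 8 (miR-451a) with 1 sample left out. Over all genes, 1 gene was called between the miRNA groups with a minimum mean of 0.1 FPKM and without a mean-variance trend, and 0 to 1 with 1 sample left out. Of the 45 correlations, 3 passed after median centring, 0 with Spearman ranks centred on the group mean, the version computed first (the plain ranks that replaced it after its result was seen gave 1), and 0 without the 2 farthest samples. Same-numbered samples were slightly more alike than others (mean correlation of deviations 0.0760 against -0.0189, with 8 of 15 and 14 of 60 pairs over 0.1), and 7 of 15 samples correlated best with their own number. The labels give no shared origin for a number, so the samples were not treated as paired in the main fit. These correlations alone cannot decide whether they share one. With the number as a replicate block, 8, 8 and 0 clock genes, 13, 15 and 0 other clock genes and 9635, 10030 and 0 genes in all were called (9686, 10091 and 0 without it). Values near 1 FPKM and 5 samples a group limit what can be seen for Per2 and Npas2.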
